A study of Mus musculus with 6 samples.

Results

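The interleukin-6 (IL-6) family of cytokines, their receptors, the transcription factor STAT3 and its feedback inhibitor SOCS3 were examined as a set of 10 genes, chosen by symbol from the 22984 genes of an RNA-seq table of BMSCs, the mesenchymal stem cells of mouse bone marrow. The set holds 3 ligands (Il6, Il11 and Lif), 5 receptor subunits (Il6st, Il6ra, Il11ra1, Lifr and Osmr), Stat3 and Socs3, and all 10 were found. These stromal cells give rise to osteoblasts, adipocytes and chondrocytes. The groups were Grx2-/- BMSCs, which lack the gene for glutaredoxin 2, a mitochondrial thiol-disulfide oxidoreductase, and Grx2+/+ BMSCs, with 3 libraries of each genotype. The labels name no treatment, time point, strain, age or sex, do not expand the prefix of the name O-BMSCs used for the cells, and do not say how the deletion was made or if each replicate was its own animal or culture. The p-values therefore measure only the spread between these libraries.

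Cytokines of this family share the signal-transducing receptor chain gp130, encoded by Il6st. IL-6 and IL-11 first bind their own alpha chains, encoded by Il6ra and Il11ra1, and the complex then pairs gp130 chains, whereas LIF acts through gp130 with the LIF receptor (Lifr) and oncostatin M through gp130 with the oncostatin M receptor (Osmr). The paired chains activate JAK kinases, which phosphorylate STAT3, and STAT3 induces Socs3, whose product blocks gp130 signalling. In bone, these cytokines are known as signals by which stromal cells and osteoblasts act on osteoclasts and on each other.

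Ligand transcripts fell or did not separate the genotypes, and 4 of the 5 receptor transcripts rose. In Grx2-/- libraries Il11 and Lif were lower and the shared chain Il6st was higher, together with the alpha chains Il11ra1 and Il6ra and with Osmr, while Lifr and Socs3 were lower. Il6 itself was low in every library and did not separate the genotypes, and Stat3 was close to level between them. Of the 10 members, 9 reached the mean of 1 FPKM (fragments per kilobase of gene, scaled to library depth) over the 6 libraries that was required for the test, and Il6 did not. All 9 were called by limma on log2(FPKM + 1) with a Benjamini-Hochberg adjusted p under 0.05, 5 higher and 4 lower in Grx2-/- libraries. This has to be read against the background, in which 67.4% of the 11083 tested genes were called, 42.7% higher and 24.6% lower in Grx2-/- libraries. The split of these calls depends on scaling, with 4737 higher and 2728 lower as deposited, 3699 higher and 3670 lower with median-of-ratios scaling, and 3413 higher and 3945 lower with quantile normalization. The direction of 8 of the 9 members was the same under both scalings, and that of Stat3 was not. A change of at least 2-fold on the log2(FPKM + 1) scale was called for 10% of all tested genes (1111 of 11083) and for 4 of the 9 members, namely Il11, Lif, Il6st and Il11ra1. The groups did not overlap for any of these 9 members, as for 73.1% of all tested genes. Il11 and Lif had a Grx2-/- mean under 1 FPKM and reached the filter only through Grx2+/+ libraries. The filter thus fixed the direction of their calls.

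Depth was 40797879 to 41794919 reads per library. Glrx2, the targeted gene, was listed at 0.00461, 0 and 0 FPKM in Grx2-/- replicates 1 to 3, against 3.57, 3.74 and 3.54 FPKM in Grx2+/+ replicates 1 to 3, so the labels and the target match. Mesenchymal markers were present in both genotypes, with a summed level over 12 genes of 1167 to 1272 FPKM in Grx2-/- libraries and 822 to 834 FPKM in Grx2+/+ libraries. They moved both ways, as 6 rose and 5 fell. Lepr, a marker of marrow stroma, was at 0.0296 to 0.0382 FPKM in Grx2-/- libraries and 3.42 to 4.48 FPKM in Grx2+/+ libraries. Thy1 was at 165 to 170 FPKM in Grx2-/- libraries and 9.51 to 13.6 FPKM in Grx2+/+ libraries. Both were named after their values were seen. Markers of other cells were present as well and moved with genotype. Macrophage markers summed to 2447 to 3317 FPKM in Grx2-/- libraries and 1486 to 1612 FPKM in Grx2+/+ libraries, and 11 of 12 rose. Neutrophil markers summed to 2.01 to 2.34 FPKM in Grx2-/- libraries, where Retnlg and Ly6g were at 0, and to 883 to 2565 FPKM in Grx2+/+ libraries, and all 7 tested of 11 fell. Endothelial markers summed to 5.06 to 5.78 FPKM in Grx2-/- libraries, with Cldn5 at 0, and 22.4 to 27.1 FPKM in Grx2+/+ libraries, with 5 of 6 tested lower. Vwf was not called. Tek, under the filter, went the other way, at 0.555 to 0.647 FPKM in Grx2-/- and 0.252 to 0.284 FPKM in Grx2+/+ libraries. Osteoblast markers summed to 2627 to 3031 FPKM in Grx2-/- libraries and 5021 to 5392 FPKM in Grx2+/+ libraries, and all 7 tested of 10 fell. Adipocyte markers summed to 236 to 252 FPKM in Grx2-/- libraries and 83.2 to 142 FPKM in Grx2+/+ libraries, and of the 4 tested of 7, 3 rose and 1 fell. Lpl alone was at 199 to 216 FPKM in Grx2-/- and 44.6 to 61.5 FPKM in Grx2+/+ libraries, and the 1 that fell was Fabp4. Of 6 listed T and B cell markers none reached the filter, and their sum was at most 0.599 FPKM in Grx2-/- libraries and at most 1.41 FPKM in Grx2+/+ libraries. Beside these counts, 42.7% of all tested genes rose and 24.6% fell. Tested markers with a Grx2-/- mean under 1 FPKM reached the filter only through Grx2+/+ libraries, so the filter fixed their direction. Most of the tested neutrophil and endothelial markers were of this kind. The part of these cells in the results below was not tested, and in bulk RNA fewer cells of a type cannot be told apart from less RNA per cell.

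Among the ligands, Il11, a cytokine known to promote osteoblast formation, showed the largest drop of the set. It was at 0.446, 0.408 and 0.365 FPKM in Grx2-/- replicates 1 to 3, or 51, 46 and 41 reads, against 3.73, 3.76 and 4.44 FPKM in Grx2+/+ replicates 1 to 3, or 417, 424 and 504 reads. All Grx2-/- libraries were far below all Grx2+/+ libraries, and the ratio of mean FPKM was 9.79-fold lower in Grx2-/-. The log2 fold change was -1.82 ± 0.072 on the log2(FPKM + 1) scale (SE, n = 3 each, limma adjusted p = 2.83e-07), which understates the change of a gene this low, and -3.28 ± 0.19 when fitted by voom to the reads. Lif, leukemia inhibitory factor, behaved alike in size and direction. It was at 0.525, 0.404 and 0.49 FPKM in Grx2-/- replicates 1 to 3, against 3.14, 3.30 and 3.06 FPKM in Grx2+/+ replicates 1 to 3. No library of either group came near the other group, and the mean was 6.70-fold lower in Grx2-/-. The log2 fold change of Lif was -1.50 ± 0.061 (SE, limma adjusted p = 3.05e-07), and -2.75 ± 0.13 by voom. In rank, mean Il11 and Lif lay above 0.929% and 1.07% of the tested genes in Grx2-/- libraries. In Grx2+/+ libraries they lay above 28.7% and 23.2% of them. Both genes reached the filter only through their Grx2+/+ values, and genes low in both genotypes were left out. Their low rank in Grx2-/- libraries therefore follows in part from the filter, and the filter also fixed the direction of their calls. With no filter both genes were still lower in Grx2-/- libraries, with limma adjusted p = 2.60e-05 for Il11 and 2.18e-05 for Lif.

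Il6 did not follow the other ligands. It was at 0.671, 0.788 and 1.03 FPKM in Grx2-/- replicates 1 to 3, or 32, 37 and 48 reads, against 0.107, 0.957 and 0.338 FPKM in Grx2+/+ replicates 1 to 3, or 5, 45 and 16 reads. Grx2+/+ replicate 2 lay within the range of the Grx2-/- libraries and the other Grx2+/+ libraries lay below it, so the groups overlapped. Means were 0.828 ± 0.181 FPKM in Grx2-/- libraries and 0.468 ± 0.439 FPKM in Grx2+/+ libraries (SD, n = 3 each), and the exact two-sided permutation test gave p = 0.3, where 0.1 is the smallest p that 3 against 3 libraries allow. The exact 95% Poisson intervals, which cover counting error only, were 32.8 to 60.2 reads for Grx2+/+ replicate 2 and 1.62 to 11.7 reads for Grx2+/+ replicate 1, so these libraries differed by more than counting error. Grx2+/+ replicate 2 also had the highest neutrophil markers, with S100a8 at 328, 999.6 and 532 FPKM in Grx2+/+ replicates 1 to 3. Adipocyte markers summed to 83.2, 142 and 101 FPKM in the same libraries, but to 236 to 252 FPKM in Grx2-/- libraries. Within that list Adipoq was at 0.0398, 3.01 and 0.784 FPKM in Grx2+/+ replicates 1 to 3, whereas Pparg was at 5.64, 5.37 and 5.73 FPKM. Whether these cells bear on the Il6 level was not tested. Without Grx2+/+ replicate 2 the difference of mean log2(FPKM + 1) of Il6 was 0.58, against 0.35 with it, and 0.17 without Grx2+/+ replicate 1.

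**Figure D1:**
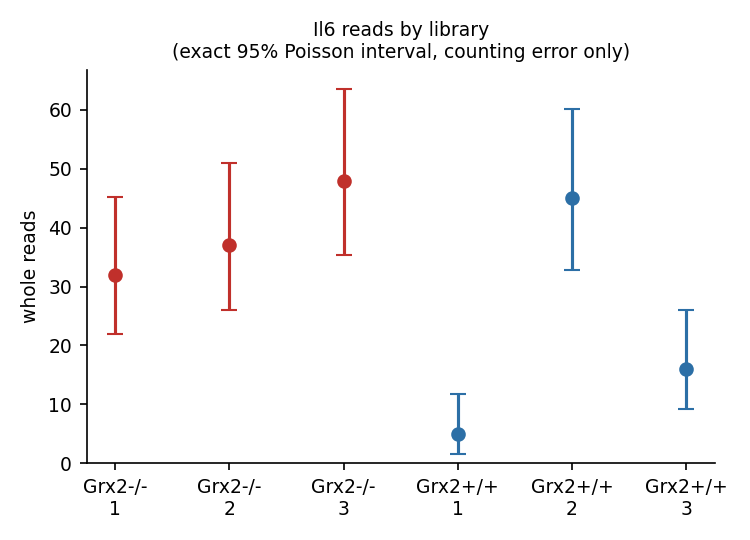
Whole reads of Il6 worked back from the FPKM values, by library (3 Grx2-/-, then 3 Grx2+/+); bars are exact 95% Poisson intervals and cover counting error only. The Grx2-/- libraries held 32 to 48 reads, and Grx2+/+ replicate 2 held 45 reads against 5 and 16 in the other Grx2+/+ libraries.

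Promoter sequence of the ligands is shown because Il11 and Lif fell together and Il6 did not. All 10 members matched RefSeq promoters of build GRCm38.p6, as 13 windows of the 250 bases before an annotated start. Motifs were searched on both strands as AP-1 (TGANTCA), STAT (TTCNNNGAA), CRE (TGACGTCA) and NF-kB (GGG, any 2 bases, then TTTCC). A match is a description of these letters and does not mark a bound site. An AP-1 match occurred in 3 of the 13 member windows, of Il6, Il11 and Lif, against 6.75% of the 32851 windows in the table. The NF-kB letters were found in the Il6 window only, against 1.41% of all windows, and the CRE letters in no member window, against 1.55%. In the sequences below, written 5′ to 3′ on the strand of the gene, capitals mark motif matches: AP-1 beginning 249 bases and NF-kB beginning 44 bases before the start of Il6, AP-1 beginning 98 bases before a start of Il11, and AP-1 beginning 228 bases before the start of Lif.
Il6, GRCm38.p6 chr5:30012864-30013113, plus strand: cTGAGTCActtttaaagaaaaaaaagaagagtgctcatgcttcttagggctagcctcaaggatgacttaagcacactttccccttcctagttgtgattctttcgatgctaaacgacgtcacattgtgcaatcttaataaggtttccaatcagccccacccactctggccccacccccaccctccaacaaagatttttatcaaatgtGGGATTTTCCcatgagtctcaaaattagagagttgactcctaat
Il11, GRCm38.p6 chr7:4778142-4778391, minus strand: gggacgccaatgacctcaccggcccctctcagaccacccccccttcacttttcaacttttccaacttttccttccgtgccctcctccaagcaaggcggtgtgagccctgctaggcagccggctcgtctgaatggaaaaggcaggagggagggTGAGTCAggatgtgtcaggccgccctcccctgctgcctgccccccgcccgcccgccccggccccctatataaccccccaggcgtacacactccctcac
Lif, GRCm38.p6 chr11:4257318-4257567, plus strand: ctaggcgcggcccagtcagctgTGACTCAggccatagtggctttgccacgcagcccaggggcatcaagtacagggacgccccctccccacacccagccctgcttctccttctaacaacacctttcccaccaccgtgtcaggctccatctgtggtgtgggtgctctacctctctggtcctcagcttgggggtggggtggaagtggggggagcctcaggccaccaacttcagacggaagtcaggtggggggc
The other RefSeq start of Il11 had no match to these motifs. The AP-1 letters were thus found in windows of all 3 ligands, of which Il11 and Lif fell and Il6 did not separate the genotypes.

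Of the receptor chains, gp130 was the most abundant member of the set in both genotypes. Il6st was at 201, 178 and 183 FPKM in Grx2-/- replicates 1 to 3, against 54.0, 59.9 and 55.1 FPKM in Grx2+/+ replicates 1 to 3. Every Grx2-/- library was roughly at the same high level, and the mean was 3.33-fold higher than in Grx2+/+. The log2 fold change of Il6st was 1.72 ± 0.056 (SE, limma adjusted p = 1.15e-07). Its mean lay above 97.3% of tested genes in Grx2-/- libraries and above 90.7% in Grx2+/+ libraries.

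Il11ra1, the alpha chain for IL-11, had the largest rise of the set while its ligand had the largest drop. It was at 37.1, 38.3 and 35.7 FPKM in Grx2-/- replicates 1 to 3, against 7.42, 9.74 and 7.85 FPKM in Grx2+/+ replicates 1 to 3. The groups were well apart, and the mean was 4.44-fold higher in Grx2-/- (log2 fold change 2.03 ± 0.086, SE, limma adjusted p = 3.90e-07). A near-identical copy, Il11ra2, is listed at no more than 0.0403 FPKM in any library, with 12 reads over the Grx2-/- libraries and 4 over the Grx2+/+ libraries. How reads matching both copies were counted is not given in the sources used here, so the level of Il11ra1 may include or lack such reads. Il11ra1 also overlaps Ccl27a by 7 bases in the RefSeq table, and Ccl27a was at most 1.04 FPKM in any library.

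Il6ra, the alpha chain for IL-6, is known to be made by myeloid cells and hepatocytes more than by stroma. It was at 3.45, 4.09 and 4.23 FPKM in Grx2-/- replicates 1 to 3, against 1.55, 1.78 and 1.61 FPKM in Grx2+/+ replicates 1 to 3. The groups did not overlap, and the log2 fold change was 0.89 ± 0.076 (SE, limma adjusted p = 1.97e-05), with 1.25 ± 0.12 by voom. Macrophage markers rose in the same libraries, with Cd68 at 283, 296 and 304 FPKM in Grx2-/- replicates 1 to 3 and 101, 97.4 and 101 FPKM in Grx2+/+ replicates 1 to 3. The part of macrophages in the Il6ra level was not tested. Il6ra also overlaps Gm46811, a long non-coding RNA gene, by 18140 bases in the RefSeq table. Gm46811 is not listed, so its level is unknown.

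Lifr and Osmr, the alternative partners of gp130, are next to each other among the protein-coding genes of chromosome 15 in the RefSeq table, and they moved in opposite directions. Osmr was at 38.8, 31.5 and 33.9 FPKM in Grx2-/- replicates 1 to 3, against 19.0, 20.6 and 19.6 FPKM in Grx2+/+ replicates 1 to 3. It was higher in every Grx2-/- library than in any Grx2+/+ library, by 1.76-fold in mean (log2 fold change 0.78 ± 0.072, SE, limma adjusted p = 3.25e-05). Lifr was at 3.12, 2.49 and 2.95 FPKM in Grx2-/- replicates 1 to 3, against 6.02, 6.42 and 6.35 FPKM in Grx2+/+ replicates 1 to 3. All Grx2-/- libraries were lower than all Grx2+/+ libraries, by 2.19-fold in mean (log2 fold change -0.92 ± 0.070, SE, limma adjusted p = 1.08e-05).

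Among the 9 tested members, Socs3 and Stat3 had the smallest log2 fold changes in size. Socs3 was at 16.97, 16.8 and 17.7 FPKM in Grx2-/- replicates 1 to 3, against 24.5, 28.7 and 24.6 FPKM in Grx2+/+ replicates 1 to 3. The Grx2-/- libraries were the lower ones without exception, with a log2 fold change of -0.57 ± 0.062 (SE, limma adjusted p = 8.83e-05). Stat3 was at 46.7, 47.5 and 47.4 FPKM in Grx2-/- replicates 1 to 3, against 44.3, 42.7 and 45.2 FPKM in Grx2+/+ replicates 1 to 3. The groups did not overlap, but the difference was small, with a log2 fold change of 0.099 ± 0.033 (SE, limma adjusted p = 0.0298) beside a median of 0.085 over all tested genes. With median-of-ratios scaling the log2 fold change of Stat3 was -0.00099 (limma adjusted p = 0.983) and with quantile normalization -0.020 (limma adjusted p = 0.638), so its direction depends on the scaling. Leaving out Grx2-/- replicate 2 or 3, or Grx2+/+ replicate 1 or 2, gave limma adjusted p = 0.0705, 0.0904, 0.0647 and 0.0815.

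The Socs3 window is shown because it is the 1 of 13 member windows with the STAT letters. These letters occurred in 7.02% of all windows, a share near that of the member windows. Capitals mark the match, which begins 154 bases before the start.
Socs3, GRCm38.p6 chr11:117969367-117969616, minus strand: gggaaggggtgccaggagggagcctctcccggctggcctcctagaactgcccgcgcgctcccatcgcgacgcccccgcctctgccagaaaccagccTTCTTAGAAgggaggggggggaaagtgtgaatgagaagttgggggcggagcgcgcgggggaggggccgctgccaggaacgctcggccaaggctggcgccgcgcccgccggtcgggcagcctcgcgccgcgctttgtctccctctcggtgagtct
Socs3 transcript was lower in Grx2-/- libraries, while Stat3 transcript was nearly level. Phosphorylation of STAT3 was not measured.

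**Figure D2:**
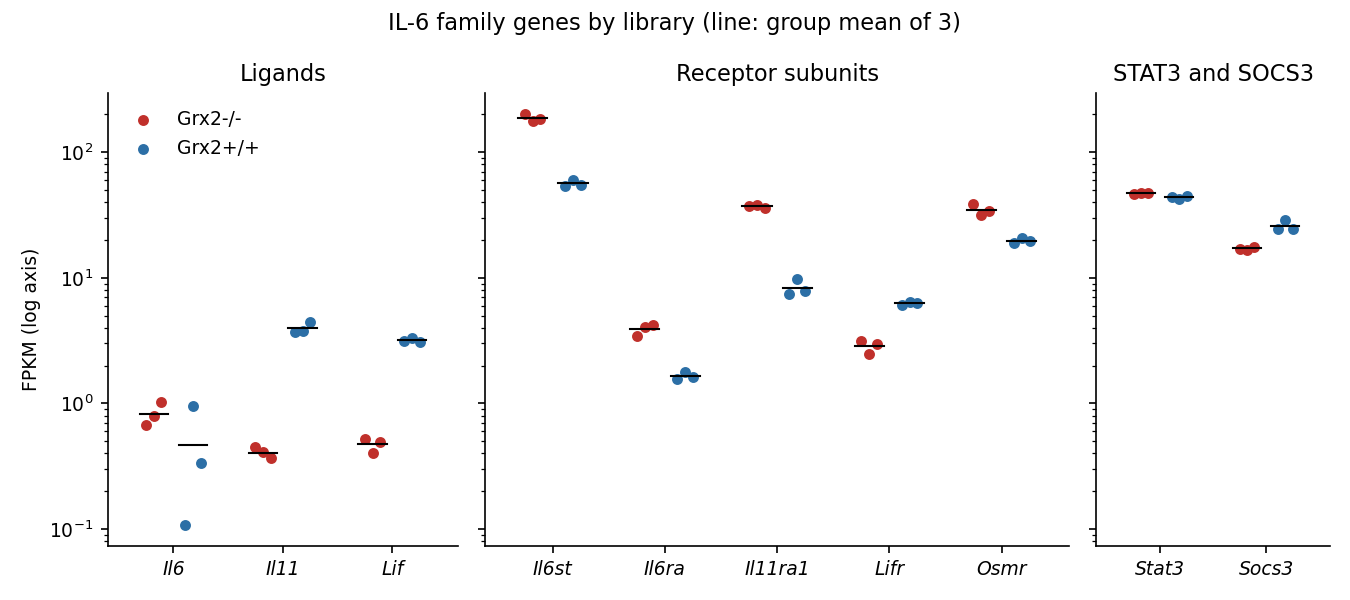
FPKM on a log axis for the 10 members, with ligands, receptor subunits, and Stat3 and Socs3 in separate panels; points are libraries (red Grx2-/-, blue Grx2+/+) and lines are means of 3. Il11, Lif, Lifr and Socs3 sit lower and Il6st, Il6ra, Il11ra1 and Osmr higher in Grx2-/- libraries, and the Il6 points of the groups overlap.

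**Figure D3:**
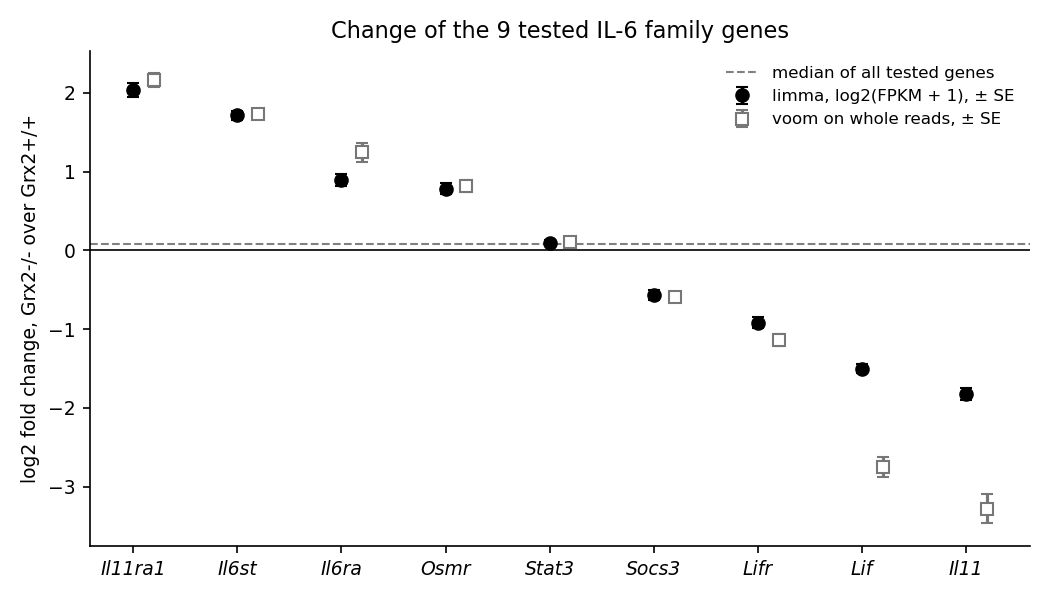
Log2 fold change of Grx2-/- over Grx2+/+ with SE for the 9 tested members, by limma on log2(FPKM + 1) (filled) and by voom on whole reads (open); the dashed line is the median of all tested genes, 0.085. Both fits order the genes alike, from Il11ra1 at 2.03 to Il11 at -1.82 on the log2(FPKM + 1) scale, and Stat3 lies on the dashed line.

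The order of levels within a genotype differed between the groups. By mean FPKM the order in Grx2-/- libraries was Il6st, Stat3, Il11ra1, Osmr, Socs3, Il6ra, Lifr, Il6, Lif and Il11. In that order Il11ra1 overlapped with Osmr and Lif overlapped with Il11, and the other neighbours were separate in all 3 libraries. In Grx2+/+ libraries the order was Il6st, Stat3, Socs3, Osmr, Il11ra1, Lifr, Il11, Lif, Il6ra and Il6, with no overlap between neighbours. FPKM is scaled to gene length, so these levels can be set side by side.

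Ratios of paired members, taken within each library, describe the balance of ligand and receptor transcripts. Osmr exceeded Lifr by 12.4, 12.6 and 11.5 times in FPKM in Grx2-/- replicates 1 to 3, against 3.15, 3.21 and 3.09 times in Grx2+/+ replicates 1 to 3. The difference of the log2(FPKM + 1) ratio was 1.70, with means of 3.21 ± 0.066 in Grx2-/- and 1.51 ± 0.027 in Grx2+/+ libraries (SD, n = 3 each). Osmr transcript was thus higher relative to Lifr in Grx2-/- libraries, but lower relative to Il6st. Osmr over Il6st was at 0.193, 0.177 and 0.185 in Grx2-/- replicates 1 to 3, against 0.352, 0.343 and 0.356 in Grx2+/+ replicates 1 to 3. Il11ra1 exceeded its ligand Il11 by 83.3, 93.9 and 97.7 times in Grx2-/- replicates 1 to 3, against 1.99, 2.59 and 1.77 times in Grx2+/+ replicates 1 to 3. Il6st exceeded Lifr by 64.4, 71.4 and 62.1 times in Grx2-/- replicates 1 to 3, against 8.96, 9.34 and 8.67 times in Grx2+/+ replicates 1 to 3. These were the pairs with the widest gap between the genotypes, with differences of -3.85 for Il11 over Il11ra1 and -2.63 for Lifr over Il6st in the log2(FPKM + 1) ratio. Lif over Lifr was at 0.168, 0.162 and 0.166 in Grx2-/- replicates 1 to 3 and 0.521, 0.515 and 0.482 in Grx2+/+ replicates 1 to 3. Ligand therefore fell by more than its receptor did. Socs3 over Stat3 was at 0.363, 0.353 and 0.372 in Grx2-/- replicates 1 to 3 and 0.554, 0.672 and 0.544 in Grx2+/+ replicates 1 to 3. On the log2(FPKM + 1) scale the smallest gap was for Il11ra1 over Il6st, with a difference of 0.32. Its unmodified FPKM ratio was 0.185, 0.215 and 0.195 in Grx2-/- replicates 1 to 3 and 0.138, 0.163 and 0.142 in Grx2+/+ replicates 1 to 3.

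Over 9 such pairs, several of which share a gene, the groups did not overlap for any on the log2(FPKM + 1) scale, beside 73.1% of single tested genes. Each exact two-sided permutation test gave p = 0.1, the smallest that 3 against 3 libraries allow, and 0.1 after Benjamini-Hochberg adjustment over the 9 pairs. For Il6 over Il6ra this rests on the added 1 FPKM. The ratio of unmodified FPKM overlapped, at 0.194, 0.193 and 0.242 in Grx2-/- replicates 1 to 3 and 0.0692, 0.537 and 0.210 in Grx2+/+ replicates 1 to 3, and with 0.1 FPKM added the exact permutation test gave p = 0.8.

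**Figure D4:**
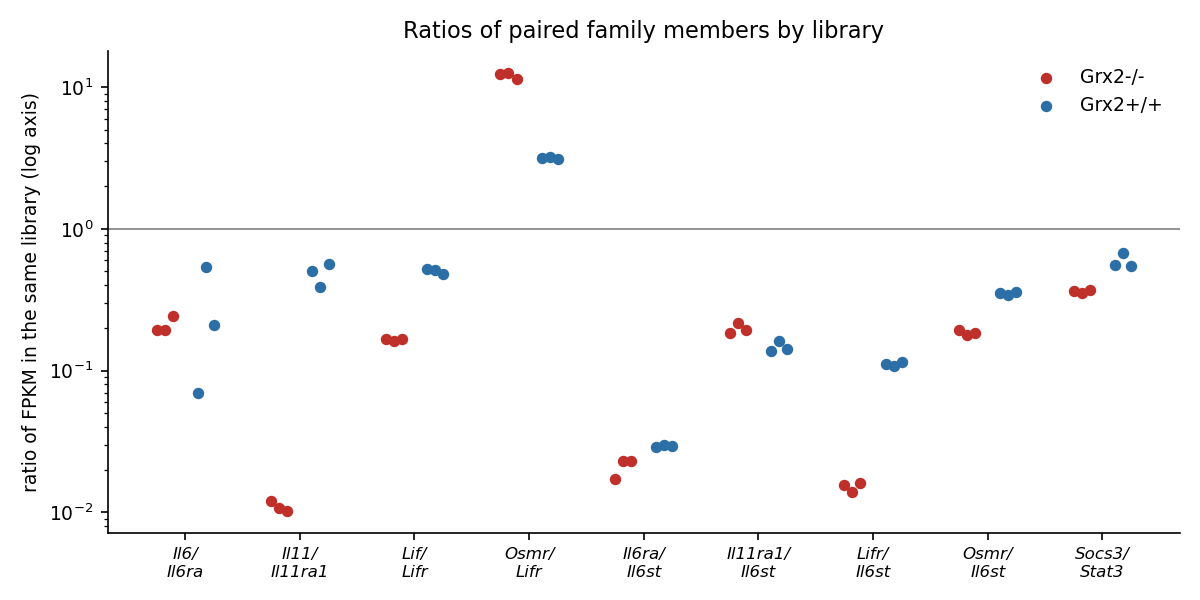
Ratio of the FPKM of 2 members in the same library on a log axis, for 9 pairs; points are libraries (red Grx2-/-, left of blue Grx2+/+) and the line marks equal FPKM. Osmr over Lifr is the pair above the line, at 11.5 to 12.6 in Grx2-/- and 3.09 to 3.21 in Grx2+/+ libraries, and Il6 over Il6ra is the pair whose groups overlap.

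Other ligands and receptors of the family were mostly scarce. Of 13 genes, 11 were listed, 3 reached the filter and all 3 rose, where 67.4% of all tested genes were called and 42.7% rose. Clcf1, a cytokine that signals through gp130, was at 8.11 ± 0.464 FPKM in Grx2-/- and 5.77 ± 0.766 FPKM in Grx2+/+ libraries (SD, n = 3 each; log2 fold change 0.43 ± 0.083, SE, limma adjusted p = 0.00204). Cntfr, the alpha chain through which CLCF1 signals, was listed at 0.0588 ± 0.00216 FPKM in Grx2-/- and 0.0911 ± 0.00821 FPKM in Grx2+/+ libraries, with 37 and 57 reads in all. Ebi3, a subunit shared by IL-27 and IL-35, rose (log2 fold change 1.39 ± 0.15, SE), whereas its IL-27 partner Il27 had 5 reads over the Grx2-/- libraries and 4 over the Grx2+/+ libraries. Osm, the ligand of Osmr and neighbour of Lif on chromosome 11, was at 0.64, 0.331 and 0.409 FPKM in Grx2-/- replicates 1 to 3 and 0.373, 0.267 and 0.456 FPKM in Grx2+/+ replicates 1 to 3. The Osm groups overlapped (exact permutation p = 0.5), although Lif beside it fell. Ctf1, cardiotrophin 1, was at 1.12 ± 0.158 FPKM in Grx2-/- and 0.547 ± 0.153 FPKM in Grx2+/+ libraries, without overlap (exact permutation p = 0.1, the smallest possible). Il31ra and Il27ra had 60 and 109 reads over the Grx2-/- libraries and 10 and 35 over the Grx2+/+ libraries, and Cntf had 12 and 9. Ctf2 and Il31 were not analysed here.

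Among 20 genes of signal transduction and feedback, all tested, 12 rose, 3 fell and 5 did not pass, where 67.4% of all tested genes were called, 42.7% higher and 24.6% lower. The list had a median log2 fold change of 0.28 beside 0.085 over all tested genes. Jak1, the main kinase of gp130, was at 88.4 ± 5.30 FPKM in Grx2-/- and 42.7 ± 1.97 FPKM in Grx2+/+ libraries (SD, n = 3 each; log2 fold change 1.03 ± 0.052, SE, limma adjusted p = 1.00e-06). Adam17, the protease that sheds the IL-6 receptor from the cell surface, was at 35.0 ± 1.27 FPKM in Grx2-/- and 19.3 ± 0.805 FPKM in Grx2+/+ libraries. Ptpn6, the phosphatase SHP-1 found chiefly in blood cells, rose by 1.69 ± 0.084 in libraries in which 11 of 12 macrophage markers rose, and the part of macrophages was not tested. The 3 that fell, named after their values were seen, were Jak2 (-0.57 ± 0.057), Ptpn2 (-0.27 ± 0.063) and Ptpn11 (-0.092 ± 0.032). Jak2 thus went down where Jak1 went up. Adam10, the other sheddase of the IL-6 receptor, was at 42.1 ± 2.11 FPKM in Grx2-/- and 41.5 ± 2.02 FPKM in Grx2+/+ libraries (limma adjusted p = 0.755), with overlap. Socs1, a relative of Socs3, was at 2.65 ± 0.130 FPKM in Grx2-/- and 2.97 ± 0.260 FPKM in Grx2+/+ libraries (limma adjusted p = 0.138).

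Textbook STAT3 target genes moved both ways. Of 22 listed genes 21 were tested, of which 11 rose, 6 fell and 4 did not pass, where 42.7% of all tested genes rose and 24.6% fell, with a median log2 fold change of 0.31 beside 0.085 over all tested genes. Icam1, a leukocyte adhesion molecule, was at 26.4 ± 3.09 FPKM in Grx2-/- and 2.50 ± 0.291 FPKM in Grx2+/+ libraries (SD, n = 3 each; log2 fold change 2.96 ± 0.091, SE, limma adjusted p = 8.91e-08). Ccnd1, cyclin D1, was at 192 ± 1.12 FPKM in Grx2-/- and 58.9 ± 5.23 FPKM in Grx2+/+ libraries, and Cebpd, a C/EBP transcription factor, had a log2 fold change of 1.20 ± 0.059. These adhesion, cell cycle and transcription factor genes went the opposite way to Socs3. Vegfa, the vascular growth factor, was at 17.7 ± 1.48 FPKM in Grx2-/- and 51.4 ± 2.11 FPKM in Grx2+/+ libraries (log2 fold change -1.49 ± 0.061, SE). The lowest members, named after their values were seen, were the acute-phase genes Lcn2 and Hp. Lcn2 was at 4.94, 2.56 and 4.09 FPKM in Grx2-/- replicates 1 to 3, against 35.5, 97.6 and 54.3 FPKM in Grx2+/+ replicates 1 to 3. Hp was at 2.65, 2.08 and 1.65 FPKM in Grx2-/- replicates 1 to 3, against 12.5, 29.8 and 17.5 FPKM in Grx2+/+ replicates 1 to 3. Both are also products of neutrophils, whose markers were 883 to 2565 FPKM in the Grx2+/+ libraries and highest in replicate 2, as Lcn2 and Hp were. The part of neutrophils in these values was not tested. Steap4 was under the filter, at 0.809 ± 0.0804 FPKM in Grx2-/- and 0.361 ± 0.277 FPKM in Grx2+/+ libraries.

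Genes known to drive or restrain Il6 production moved both ways. Of 22 listed genes 21 were tested, of which 13 rose, 5 fell and 3 did not pass, where 42.7% of all tested genes rose and 24.6% fell, with a median log2 fold change of 0.44 beside 0.085 over all tested genes. Tnf was at 4.42 ± 0.343 FPKM in Grx2-/- and 1.49 ± 0.116 FPKM in Grx2+/+ libraries (SD, n = 3 each; log2 fold change 1.12 ± 0.068, SE, limma adjusted p = 2.80e-06), and its receptor gene Tnfrsf1a was at 112 ± 3.37 FPKM in Grx2-/- and 61.9 ± 1.87 FPKM in Grx2+/+ libraries. Tlr2, a receptor for bacterial lipoproteins, rose by 1.16 ± 0.061, and Jun rose by 0.60. The highest member, named after its value was seen, was the interleukin-1 receptor gene Il1r1, at 31.5 ± 3.81 FPKM in Grx2-/- and 5.40 ± 1.77 FPKM in Grx2+/+ libraries. Il1b, a cytokine that induces Il6, was under the filter, with 4 reads over the Grx2-/- libraries and 36 over the Grx2+/+ libraries. Zc3h12a, whose product degrades Il6 messenger RNA, was at 3.77 ± 0.0248 FPKM in Grx2-/- and 3.56 ± 0.501 FPKM in Grx2+/+ libraries (limma adjusted p = 0.452). Tnf and Tlr2 are expressed by macrophages as well, and macrophage markers were higher in the same Grx2-/- libraries. The part of macrophages in the Tnf and Tlr2 levels was not tested.

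**Figure D5:**
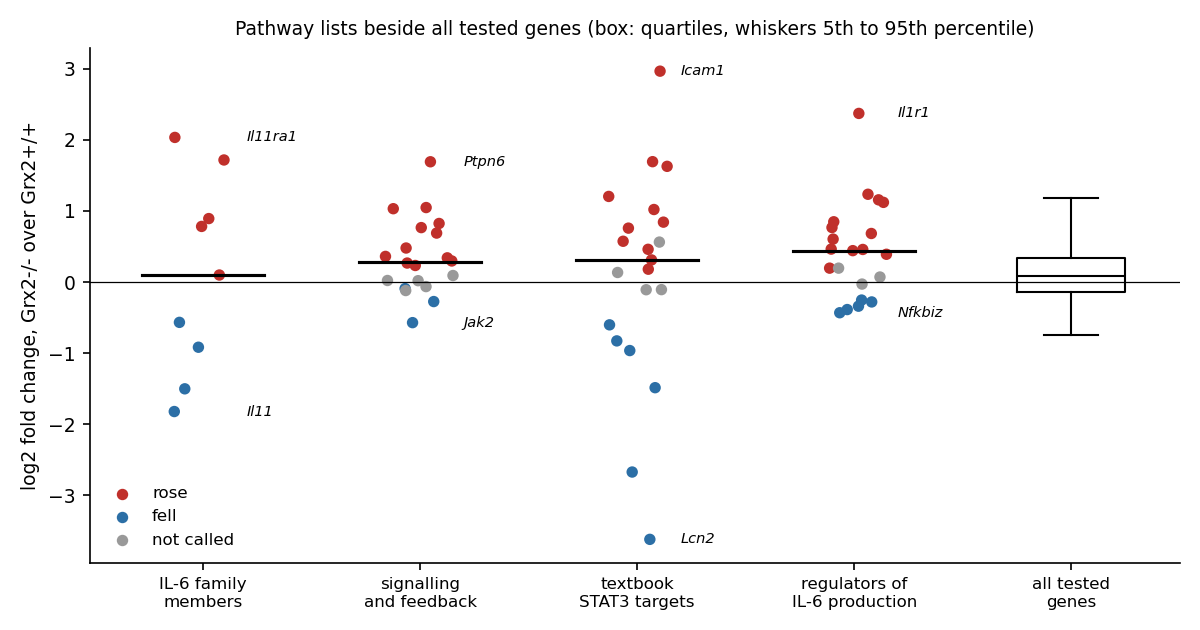
Log2 fold change of Grx2-/- over Grx2+/+ for the tested genes of 4 lists, coloured by call (red rose, blue fell, grey not called) with the list median as a line, beside a box of all 11083 tested genes (quartiles, whiskers at the 5th and 95th percentiles). Members spread from -1.82 to 2.03 around a median of 0.099, and the widest list is that of STAT3 targets, from Lcn2 at -3.62 to Icam1 at 2.96.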

How the data were processed

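The authors deposited FPKM values, 1 column per library; the submitters' processing notes name GRCm39 as genome build and list the tools R 3.2.0, HTSeq and HISAT2. Not given in the sources used here: annotation, strand setting, filters and other versions. Without a known strand setting, reads of overlapping or antisense genes cannot be told apart. Per the labels' protocols, TRIzol was used for extraction and a VAHTS Universal V6 kit for the libraries. The columns were matched to the 3 Grx2-/- and 3 Grx2+/+ libraries by title. The members and lists were chosen with earlier results of these data known, and the lists come from textbook knowledge.

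log2(FPKM + 1) of the 11083 genes averaging 1 FPKM or more over the 6 libraries was fitted with limma 3.58.1 in R 4.3.3 (eBayes with trend, two-sided, Benjamini-Hochberg adjustment over all tested genes, adjusted p under 0.05). The fit was also run on simulated data with known changes in a small part of the genes. Most tested genes were called in these data, so that run does not show how the fit performs here. Whole reads were worked back for 22983 genes (tolerance 1e-05 reads) and fitted by voom. Where the reads of a gene in all 6 libraries share a divisor, the recovered reads may be too low by it. Single values used exact permutation tests (scipy 1.17.1). Libraries of a group differed by 3.86 to 22.8 times sampling noise (mean chi-square per gene), so none was a copy. Named genes are the members, up to 4 of each list with the smallest p, list genes under the filter and exceptions. Some genes of the lists are counted but not reported here by name. Alternatives were another pseudocount, filters, scalings, variance models, the replicate number as a block, libraries left out, voom and a 2-fold minimum.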

Additional observations from a re-analysis of the deposited data

How the results depend on the processing

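Calls and directions of Il11, Lif, Il6st, Il6ra, Il11ra1, Lifr, Osmr and Socs3 were the same in each alternative that tested them except the 2-fold minimum, which Il6ra, Lifr, Osmr and Socs3 did not reach, with highest adjusted p from 1.73e-05 (Il6st) to 0.00114 (Socs3). Stat3 was not called in 7 of 16 alternatives, and its log2 fold change turned to -0.00099 with median-of-ratios scaling and -0.020 with quantile normalization, which moved the median of all tested genes by -0.087 and -0.11. Over all tested genes these scalings gave 3699 higher and 3670 lower, and 3413 higher and 3945 lower, in place of 4737 and 2728. With a mean FPKM of at least 5, Il11, Lif, Il6ra and Lifr were not tested, which left 1 member that fell, and 2 regulators of IL-6 production fell. With no filter, 6 other ligands and receptors rose and 1 fell. With a 2-fold minimum, 719 tested genes rose and 392 fell, 2 members rose and 2 fell, 3 signalling genes rose and 0 fell, 5 STAT3 targets rose and 3 fell, and 4 regulators of IL-6 production rose and 0 fell. With 1 library left out, 4 or 5 members rose and 4 fell, and over all tested genes 4190 to 4689 rose and 2337 to 2853 fell. Same-numbered libraries of the genotypes deviated together only weakly (r = 0.11, 0.12 and 0.020), beside r = -0.13 to 0.060 for differently numbered ones. With so few libraries this cannot show if the numbers pair them, and the labels do not say. With the replicate block 5 members rose and 4 fell, and Stat3 had limma adjusted p = 0.0454. With 0.1 FPKM added, 8 of 9 within-family ratios did not overlap. Il6 without the filter had a log2 fold change of 0.35 (limma adjusted p = 0.267). With 32 to 48 and 5 to 45 reads of Il6 per Grx2-/- and Grx2+/+ library, counting error limits what can be seen of it.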

Other observations

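The tested genes whose pattern over the 6 libraries was most like that of Il6 on the log2(FPKM + 1) scale were Akap13 (Pearson r = 0.993), Strn3 (0.987) and Znhit6 (0.986). None of them was called between the genotypes. Akap13, an anchoring protein for protein kinase A, was at 4.17, 4.24 and 4.29 FPKM in Grx2-/- replicates 1 to 3 and 3.97, 4.25 and 4.08 FPKM in Grx2+/+ replicates 1 to 3. Its levels varied far less than those of Il6, and with 6 libraries a correlation of this size describes these libraries only.

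Genes next to the members in the RefSeq table did not all move with them. Rictor, on the other side of Osmr from Lifr, fell (log2 fold change -0.41, limma adjusted p = 0.0017), and Galt, beside Il11ra1, rose (0.73, limma adjusted p = 2.07e-05). Cavin1, which lies next to Stat3, was at 192, 198 and 197 FPKM in Grx2-/- replicates 1 to 3, against 84.7, 95.1 and 87.1 FPKM in Grx2+/+ replicates 1 to 3 (log2 fold change 1.13, limma adjusted p = 3.05e-07), while Stat3 was nearly level. Stat5a, on its other side, rose by 0.69. The neighbours of Il6st were under the filter but higher in Grx2-/- libraries, as Il6st was. Il31ra was at 0.0465 to 0.112 FPKM in Grx2-/- and 0.0126 to 0.0168 FPKM in Grx2+/+ libraries. Ankrd55 was at 0.380 to 0.509 FPKM in Grx2-/- and 0.0617 to 0.114 FPKM in Grx2+/+ libraries.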
